A study of Mus musculus with 10 samples.

Results

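The genes described here encode the subunits of the mitochondrial respiratory chain and of the ATP synthase, together with some of their assembly factors. They were taken from the deposited gene table as the protein-coding genes whose symbol starts with mt-, Nduf, Uqcr, Cox4 to Cox8 or Atp5, or is Sdha, Sdhb, Sdhc or Sdhd. This gave 93 of the 39273 listed genes. Of these, 13 are encoded by the mitochondrial genome and 80 by the nuclear genome. The mitochondrial genes comprise 7 of complex I, 1 of complex III, 3 of complex IV and 2 of complex V. The nuclear genes comprise 31 of complex I, 4 of complex II, 7 of complex III, 17 of complex IV, 13 of complex V, 7 assembly factors of complex I and Cox5b-ps, which is a near-identical copy of Cox5b.

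Complexes I to IV of the chain pass electrons from NADH and succinate to oxygen and, with the exception of complex II, pump protons across the inner mitochondrial membrane, and complex V uses that gradient to make ATP. All subunits of complex II come from nuclear genes, whereas the other complexes are assembled from products of both genomes. In the kidney, transporting epithelia such as the proximal tubule and the thick ascending limb are known for their abundant mitochondria, and within the collecting duct the acid-base regulating intercalated cells are richer in mitochondria than the water-reabsorbing principal cells.

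RNA-seq had been performed on mouse ureteric bud (UB) organoids, on collecting duct (CD) organoids and on CD cells of adult mice (adult mCD), with 2 libraries in each of the 5 groups. UB organoids are cultured progenitors of the collecting system and were sampled after 5, 10 and 20 days in UB culture medium. They were started from kidney UB of embryonic day 11.5 (given in some labels as day 11) of C57BL/6 x Swiss Webster mice carrying Wnt11-RFP +/-, a red fluorescent reporter of the UB tip gene Wnt11. CD organoids were day-10 UB organoids moved for 7 days to a medium that drives CD differentiation. Adult mCD were sorted as Venus-positive cells from kidneys of Hoxb7-Venus mice of about 2 months of age, although the sample labels list them with the same embryonic day, strain and Wnt11-RFP +/- genotype as the organoids. Hoxb7-Venus marks cells that descend from the UB. No source used here says whether the 2 libraries of a group came from separate cultures or animals, so the p-values measure only the spread between these libraries.

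The libraries held 11913613 to 24536676 counts, with those of day 5 and day 10 the deepest. Those of day 5 and day 10 also carry a run of sample numbers apart from that of the other groups. No source used here says whether they were made or sequenced separately. Day 20 and CD organoids against day 10 cross this division, and its part in those differences cannot be told apart from that of the culture. Summed CPM of 8 principal cell markers was 11516 to 11985 in adult mCD, 1334 to 1496 in CD organoids and 111 to 226 in UB organoids. Of 6 UB tip markers it was 97.6 to 116, 364 to 385 and 2312 to 4042, in the same order. Sox9, a tip marker, was at 234 and 256 CPM in CD organoids, within its range of 231 to 345 in UB organoids. Avpr2, a principal cell marker, had no counts in CD organoids and was under 1 CPM in every library. The sum of 8 intercalated cell markers was 2770 to 2866 CPM in adult mCD, 2108 to 2221 in CD organoids and 124 to 174 in UB organoids, where nearly all of it was Kit. The sum of 4 leukocyte markers was 69.6 to 76.5 CPM in adult mCD, 95.4 to 105 in CD organoids and 0.598 to 15 in UB organoids. In CD organoids nearly all of it was Ptprc and Cd74, which were both lower in adult mCD. The remaining markers, Lyz2 and Csf1r, went the other way. They were at 0.214 CPM or less in CD organoids and at 5.35 CPM or more in adult mCD. The leukocyte sum is therefore not read as a ranking of leukocyte content between these groups. Adult mCD also held 9078 to 11269 CPM of 10 proximal tubule markers, all 10 of them detected at 1 CPM or more, against 8.04 to 40.1 CPM in the organoids. For 4 thick ascending limb markers the range was 3393 to 3594 CPM in adult mCD against 0.438 to 11.3 in the organoids, and for 4 endothelial markers 499 to 506 against 0.256 to 2.45. For 3 distal convoluted tubule markers it was 465 to 514 against 1.50 to 14.4. These RNAs of other kidney cells move with every difference between adult mCD and the organoids given below, and their part in those differences was not tested. Likewise, the sums of the intercalated cell, principal cell and UB tip markers move with the differences between CD organoids and UB organoids. So do Ptprc and Cd74 of the leukocyte markers and Col1a1 and Pdgfra of 4 stromal markers, and the part of all these was not tested. The stromal sum was 97.1 and 41.9 CPM in CD organoids, 60.0 to 67.0 in adult mCD and 7.40 to 18.0 in UB organoids. In bulk RNA, a change in the number of cells of a type and a change in RNA per cell cannot be told apart.

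Of the 13 mitochondrial genes, 7 carried counts in every library. The other 6, mt-Co2, mt-Co3, mt-Atp6, mt-Atp8, mt-Nd3 and mt-Nd4l, were listed at 0 counts throughout, apart from 2124 counts (160 CPM) of mt-Atp6 in adult mCD replicate 1. These 6 genes lie side by side on the mitochondrial chromosome, in GENCODE M21 on GRCm38 from position 7013, where mt-Co2 starts, to 10173, where mt-Nd4l ends. Nuclear pseudogenes on chr1:24611535-24616197 repeat 5 of them at 99.7% to 100% identity over almost their whole length, and most of these copies were themselves at or near 0. One of the copies, Gm28438, held counts in every library, 16 and 31 at day 5, 27 and 139 at day 10, 105 and 118 at day 20, 112 and 134 in CD organoids and 173 and 191 in adult mCD. Both sequences given next show how little separates mt-Nd3 from that copy, as the first 33 bases of each transcript with the differing base in capitals. Over the 345 bases compared they differ by T3C, counted from the first base of mt-Nd3, with the mt-Nd3 base written first.
mt-Nd3: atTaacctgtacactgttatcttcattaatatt
Gm28438: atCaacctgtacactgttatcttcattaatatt
A short read from most of this gene therefore matches both places equally well. Whether such reads were dropped in the authors' assignment was not tested, and the zeros of these 6 genes are not read as absence of expression.

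The levels of the 7 counted mitochondrial genes were lowest in young UB organoids and highest in adult mCD. mt-Co1, the catalytic subunit of cytochrome c oxidase, was at 4167 and 3495 CPM at day 5, 3183 and 3569 at day 10, 7521 and 8239 at day 20, 9476 and 9634 in CD organoids and 33609 and 36300 in adult mCD. Its day-5 and day-10 libraries overlapped, and each later group lay above both. mt-Cytb, the cytochrome b of complex III, was at 1508 and 1300 CPM at day 5, 1986 and 2700 at day 10, 6025 and 6483 at day 20, 4527 and 4403 in CD organoids and 23014 and 23882 in adult mCD. None of its groups overlapped, and CD organoids stood below UB organoids of day 20.

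Among the complex I genes, which encode membrane-arm subunits, mt-Nd1 was at 1304 and 1103 CPM at day 5, 1613 and 1997 at day 10, 3807 and 4362 at day 20, 4697 and 4574 in CD organoids and 14439 and 14692 in adult mCD. mt-Nd4 was at 696 and 605, 862 and 1032, 2018 and 2233, 1866 and 1873, and 10027 and 10332 CPM in the same order. mt-Nd1 was higher in CD organoids than at day 20 and mt-Nd4 lower, each without overlap of the libraries. mt-Nd2 ranged from 664 CPM at day 5 to 10426 in adult mCD, and mt-Nd5 from 1395 to 14856. mt-Nd6, the mitochondrial subunit gene read from the opposite strand to all the others, ranged from 462 to 4411 CPM. Whether the authors counted by strand is not given in the sources used here, so reads of mt-Nd6 cannot be told apart from transcripts antisense to it.

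**Figure D1:**
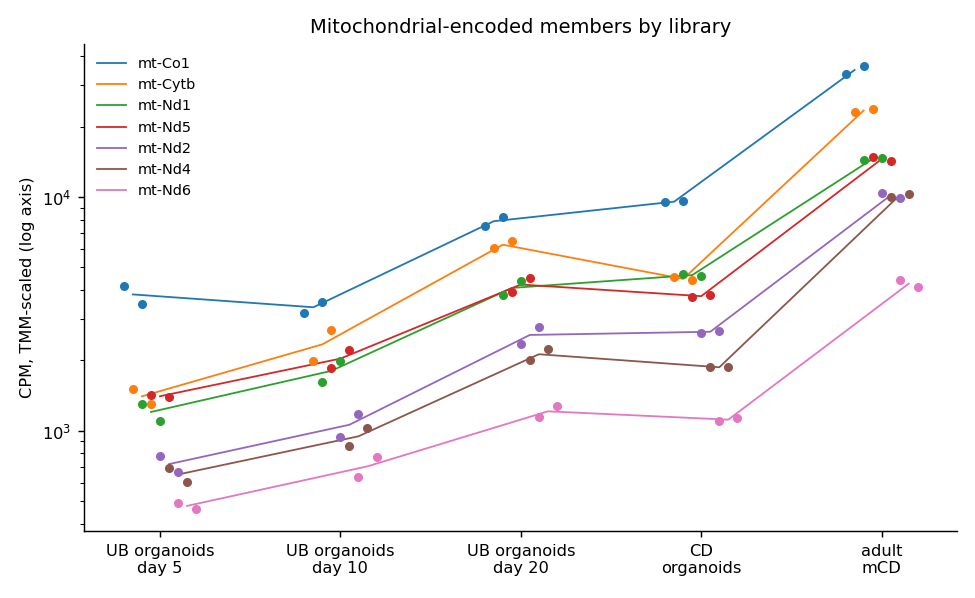
Levels of the 7 counted mitochondrial-encoded genes as TMM-scaled CPM on a log axis, with a point for each library and a line through the means of the 2 libraries of each group. mt-Co1 ran from 3183 CPM in a day-10 library to 36300 CPM in an adult mCD library, and all 7 genes had their highest values in adult mCD.

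In UB organoids of day 10 against day 5, 6 of these 7 genes rose by edgeR's quasi-likelihood test at a Benjamini-Hochberg adjusted p of at most 0.01, with log2 fold changes of 0.53 to 0.74. Over all 24410 genes tested in this comparison, 10.5% were higher and 11.8% lower. Among genes with a mean of at least 10 CPM, where all 7 lay, these shares were 17.3% and 22.6%. mt-Co1 gave -0.18 (SE 0.0978, edgeR adjusted p = 0.18). The count fell to 3 of 7 when day-5 replicate 2 was left out, and to 0 when the fit held only the 4 libraries compared, where the 16 nuclear falls given below became 1. From day 10 to day 20 all 7 rose, by 0.78 (mt-Nd6) to 1.42 (mt-Cytb), where 8.76% of all genes were higher and 9.93% lower. Of genes of at least 10 CPM, 15.8% were higher and 16.8% lower there. The count at day 20 was 7 whichever single library was left out.

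In CD organoids against UB organoids of day 10, the stage at which CD differentiation was started, all 7 rose again, by 0.66 for mt-Nd6 to 1.50 for mt-Co1. Of all genes, 18.1% were higher and 19.8% lower, and of those of at least 10 CPM 31.2% and 33.7%. Compared with UB organoids of day 20, only mt-Cytb passed among the 7, with a fall of 0.49 on the log2 scale (SE 0.121, edgeR adjusted p = 0.00488). There 16.8% of all genes were higher and 17.1% lower, and 29.3% and 30.6% of those of at least 10 CPM. The other 6 lay between -0.19 (mt-Nd4, SE 0.0981) and 0.28 (mt-Co1, SE 0.0978, edgeR adjusted p = 0.0349). Day 10 libraries enter 3 of these comparisons and are shared between them.

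Adult mCD exceeded CD organoids for all 7, by 1.65 (mt-Nd1) to 2.45 (mt-Nd4, SE 0.103, edgeR adjusted p = 2.8e-10) on the log2 scale. In this comparison 21.6% of all genes were higher and 18.6% lower, and 30.5% and 31.5% of those of at least 10 CPM. The median of the 7 was 1.94, beside 0 over all genes tested. mt-Atp6, with counts in 1 adult library only, gave an edgeR adjusted p of 0.0117 and was not called.

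As a share of all counts, the mitochondrial genes together made up 1.04% and 0.901% at day 5, 1.22% and 1.50% at day 10, 2.96% and 3.21% at day 20, 2.90% and 2.94% in CD organoids and 8.78% and 9.0% in adult mCD. The share was nearly the same in day-20 UB organoids and CD organoids and about 3 times higher in adult mCD. The 2 mitochondrial ribosomal RNAs, which are no members and lack the long poly(A) tails of most mRNAs, took 0.0563% to 0.0776% of counts at day 5 and day 10, 0.142% and 0.186% at day 20, 0.255% and 0.241% in CD organoids and 0.856% and 0.858% in adult mCD. Their order of groups differed from that of the mRNAs in that CD organoids stood above day 20.

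The makeup within the mitochondrial mRNA also differed between groups. mt-Co1 took 40.2% and 38.7% of the mitochondrial counts at day 5, 28.7% and 26.5% at day 10, 28.0% and 27.6% at day 20, 33.8% and 34.3% in CD organoids and 30.3% and 32.0% in adult mCD. mt-Cytb took 14.6% and 14.4%, 17.9% and 20.1%, 22.5% and 21.7%, 16.2% and 15.7%, and 20.7% and 21.1%. The ratio of mt-Cytb to mt-Co1 RPKM, a comparison of levels per length, was 0.489 and 0.502 at day 5 and 1.08 and 1.06 at day 20, and it was 0.645 and 0.617 in CD organoids. Day-5 UB organoids and CD organoids were thus the groups with relatively most mt-Co1. In adult mCD the mean RPKM ran from 22878 for mt-Co1 and 20723 for mt-Cytb over 15386 for mt-Nd1 down to 7470 for mt-Nd4. The place of mt-Nd4 in this order is uncertain, since the first 876 of its 1378 bases are identical to the chromosome 1 copy Gm28439, which had no counts in any library. A stretch of 483 of the 1545 bases of mt-Co1 matches the copy Gm29216 at 99.8%, and its whole length matches Gm13340 at 97.6%, and whether reads of either gene were lost to these copies was not tested.

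Of the 80 nuclear genes, 77 passed the filter of 10 counts in sum over the libraries, and Cox7b2, Cox8b and Cox8c, isoform genes of complex IV known from testis or muscle, did not, with 2 counts each. The nuclear genes were lowest in UB organoids of day 10 and day 20 and highest in adult mCD. Their summed CPM was 7695 and 7459 at day 5, 6570 and 6050 at day 10, 6319 and 6572 at day 20, 8565 and 8258 in CD organoids and 16626 and 18330 in adult mCD. Adult mCD had the highest group mean for 70 of the 77, UB organoids of day 5 for 5 and CD organoids for 2.

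From day 5 to day 10, when 6 mitochondrial genes rose, 16 of the 77 nuclear genes fell and 1 rose (edgeR, adjusted p of at most 0.01), with a median log2 fold change of -0.17. Among all genes with a mean of at least 10 CPM, the range in which 69 of the 77 lay, 22.6% fell and 17.3% rose. The number called lower varied with the library left out. The median of the nuclear genes was -0.14 without day-5 replicate 1 and -0.24 without day-10 replicate 1. With library totals in place of TMM factors, which moves the median of all genes by 0.14, the split was 2 higher and 7 lower. Of all genes tested, 15.1% were higher and 7.94% lower in that setting. From day 10 to day 20 only 4 nuclear genes rose and 2 fell, with a median of 0.02. Among genes of at least 10 CPM, 15.8% rose and 16.8% fell there. The 4 became 1 and 0 without day-20 replicate 1 and 2. The 2 became 0 without either of these or without day-10 replicate 1, and 4 without day-10 replicate 2. Library totals gave 2 higher and 2 lower, beside 8.01% and 11.0% of all genes tested.

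In CD organoids against UB organoids of day 10, 36 of the 77 nuclear genes rose and 1 fell, with a median of 0.32, whereas among genes of at least 10 CPM 31.2% rose and 33.7% fell with a median of -0.03. With library totals, 9 of the 37 genes called against day 10 were lost and the median was 0.23. Against UB organoids of day 20 the counts were 37 and 1 and the median was 0.37, beside 29.3% and 30.6% of genes of at least 10 CPM. In adult mCD against CD organoids 69 rose and 2 fell, with a median of 0.96, beside 30.5% and 31.5% of genes of at least 10 CPM and a median of -0.03. With library totals, which move the median of all genes by -0.38, 54 rose and 2 fell, beside 15.5% and 30.4% of all genes tested.

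**Figure D2:**
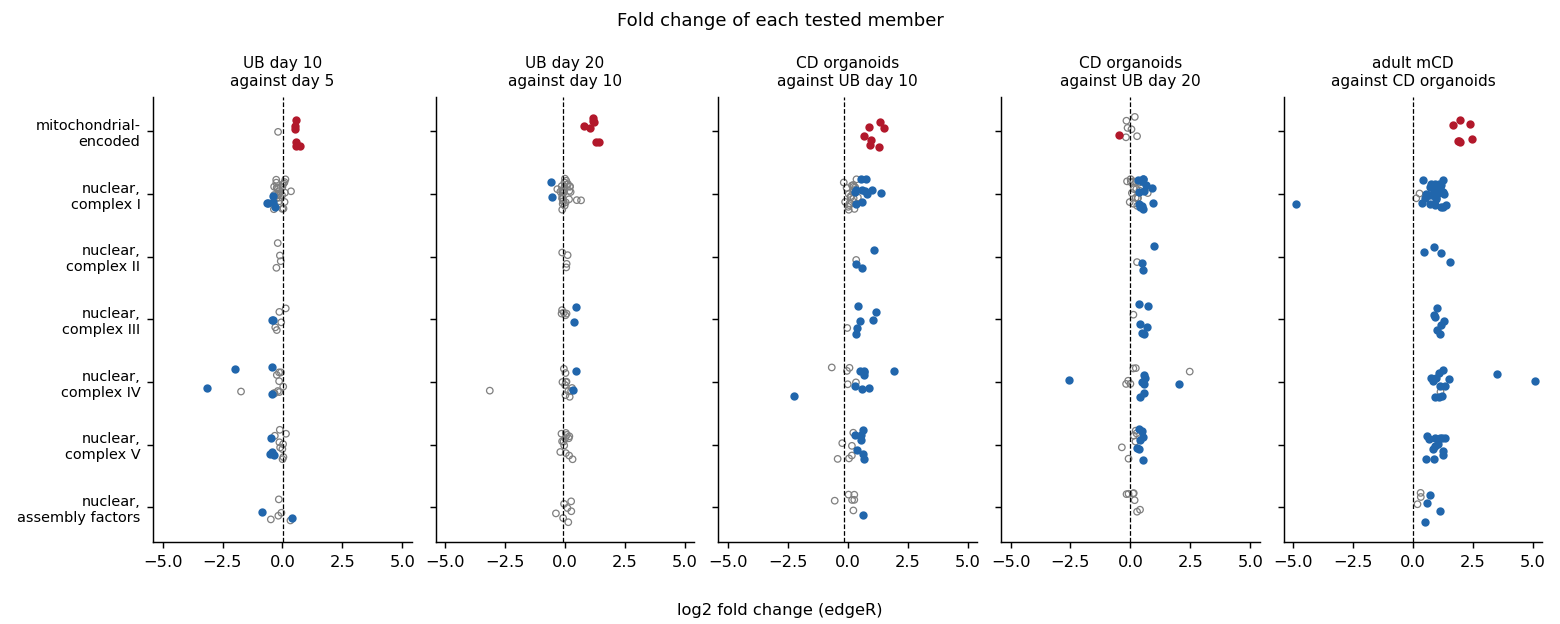
Log2 fold change (edgeR) of each tested member in 5 comparisons, by genome and complex, with filled points for adjusted p of at most 0.01, open points for the rest, and a dashed line at the median of all genes tested. mt-Atp6 and Cox5b-ps are not drawn. In adult mCD against CD organoids nearly all points lie right of the line, and from day 10 to day 20 the mitochondrial genes lie right of it while most nuclear genes lie on it.

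In complex I, the NADH dehydrogenase, 5 of 31 nuclear genes fell from day 5 to day 10, where 22.6% of all genes of at least 10 CPM fell. The largest falls were in Ndufa6, an accessory subunit, and Ndufs7, which binds an iron-sulfur cluster. Ndufa6 was at 114 and 108 CPM at day 5, 85.6 and 55.9 at day 10, 45.5 and 49.6 at day 20, 85.9 and 90.1 in CD organoids and 129 and 140 in adult mCD. It fell by 0.65 at day 10 (SE 0.14, edgeR adjusted p = 0.00289) and again by 0.57 at day 20 (SE 0.146, edgeR adjusted p = 0.00968), so that day 20 stood lowest without overlap. Ndufs7 went from 59.1 and 57.8 CPM at day 5 to 42.5 and 34.9 at day 10, a fall of 0.60 on the log2 scale, and was at 76.7 and 93.4 in adult mCD. Ndufv3, an accessory subunit of the NADH-oxidising module, was the other complex I gene that fell from day 10 (81.8 and 59.5 CPM) to day 20 (44.9 and 52.5), by 0.54.

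In CD organoids 11 of the 31 rose against day 10, with a complex median of 0.26, a count near the 31.2% of all genes of at least 10 CPM that rose. Ndufa1, a small X-linked subunit of the membrane arm, was at 15.8 and 18.9 CPM at day 10, 37.5 and 33.5 in CD organoids and 84.1 and 98.3 in adult mCD. Its log2 fold changes were 1.03 (SE 0.134, edgeR adjusted p = 2e-05) and then 1.36 (SE 0.129, edgeR adjusted p = 9.48e-07). In adult mCD 28 of the 31 rose, with a median of 0.90, beside 30.5% of all genes of at least 10 CPM. Ndufv3 gave 0.13 there (edgeR adjusted p = 0.405).

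Ndufs5, an accessory subunit, was the complex I gene that went against this. It was at 3.88 and 4.23 CPM at day 10 and 11.2 and 10.2 in CD organoids, a rise of 1.39 on the log2 scale, but at 0.226 and 0.393 CPM in adult mCD, which is 3 and 5 counts, for a log2 fold change of -4.90 (SE 0.341, edgeR adjusted p = 4.07e-08). Its processed copy BC002163, 99.4% identical over 319 bases, went the other way, with 4.34 and 4.97 CPM in CD organoids and 37.2 and 39.5 in adult mCD. Summed over both, the level was 15.6 and 15.2 CPM in CD organoids and 37.4 and 39.8 in adult mCD, 2.51 times higher. The direction for Ndufs5 alone is therefore uncertain. Cox5b-ps, at 2.35 and 1.52 CPM in CD organoids and 0.302 and 0.393 in adult mCD, was the other nuclear gene that fell, and it is itself 99.2% identical to Cox5b over 390 bases. In all, 10 of the 80 nuclear genes have a copy of at least 97% identity over 200 bases or more. Without them, 60 rose and 1 fell in adult mCD, beside 30.5% and 31.5% of all genes of at least 10 CPM.

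Complex II, succinate dehydrogenase, links the chain to the TCA cycle. From day 5 to day 20 its 4 genes stayed within log2 fold changes of -0.25 to 0.11, and none passed in either step by edgeR or DESeq2, with 2 lower at an unadjusted p under 0.05 from day 5 to day 10. Sdhd, a membrane anchor, was at 91.5 and 84.3 CPM at day 10, 94.0 and 95.2 at day 20, 189 and 186 in CD organoids and 240 and 276 in adult mCD. Its rise in CD organoids was 1.09 (SE 0.0794, edgeR adjusted p = 6.38e-08) and the further one in adult mCD 0.46. Sdhb, the iron-sulfur subunit, was at 65.4 and 63.1, 63.0 and 71.4, 84.0 and 78.7, and 223 and 251 CPM in the same groups. For Sdhb the order of the steps was turned around, with 0.34 in CD organoids and 1.54 (SE 0.0889, edgeR adjusted p = 6.13e-09) in adult mCD. Sdha, the flavoprotein, rose by 0.58 and then 1.15. Sdhc, the other membrane anchor, gave 0.35 in CD organoids (edgeR adjusted p = 0.0103) and rose by 0.88 in adult mCD.

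In complex III, cytochrome c reductase, the small subunit genes Uqcrb and Uqcrq were among the few nuclear genes that rose at day 20 as well as in CD organoids and adult mCD. Uqcrb was at 43.0 and 40.5 CPM at day 10, 55.3 and 58.4 at day 20, 95.8 and 94.8 in CD organoids and 172 and 186 in adult mCD. Its log2 fold changes were 0.45 at day 20 (edgeR adjusted p = 0.00267), 1.19 in CD organoids against day 10 and 0.91 in adult mCD against CD organoids. Uqcrq went from 37.7 and 41.2 CPM at day 10 over 49.9 and 51.8 at day 20 to 81.9 and 82.3 in CD organoids and 141 and 161 in adult mCD, with 0.36, 1.06 and 0.88 for the same comparisons. Neither gene had overlapping libraries between these groups. Over the whole complex 2 of 7 genes fell from day 5 to day 10, among them Uqcrfs1, the Rieske iron-sulfur protein (-0.41). Of all genes of at least 10 CPM, 22.6% fell there. In all, 6 of the 7 rose in CD organoids and all 7 in adult mCD, with medians of 0.44 and 1.02. Among genes of at least 10 CPM, 31.2% and 30.5% rose in these comparisons. Uqcrb has 3 processed copies of 97.6% to 98.2% identity.

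Complex IV, cytochrome c oxidase, has several nuclear subunits encoded by alternative isoform genes, and several of these were among the members with the largest changes. Cox6b2, known from testis, was at 52.4 and 57.2 CPM at day 5, 14.4 and 13.4 at day 10, 18.3 and 15.7 at day 20, 3.20 and 2.49 in CD organoids and 6.48 and 8.09 in adult mCD. It fell by 1.97 at day 10 (SE 0.128, edgeR adjusted p = 2.25e-07) and by 2.26 in CD organoids against day 10 (SE 0.171, edgeR adjusted p = 9.45e-08), and rose by 1.33 in adult mCD. Its widely expressed partner Cox6b1 was at 127 and 125, 120 and 109, 111 and 120, 170 and 153, and 307 and 322 CPM. By deposited RPKM, Cox6b2 was 15.8% and 17.5% of Cox6b1 at day 5, 4.61% and 4.72% at day 10, and 0.624% to 0.964% in CD organoids and adult mCD. The deposited length of Cox6b2, 4294 bases, exceeds the span of its gene (chr7:4751792-4753094). These shares are therefore read between groups and not as levels.

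Cox4i2, an isoform known from lung and from the response to low oxygen, was at 7.98 and 10.4 CPM at day 5, 1.66 and 0.328 at day 10, 0.121 and 0 at day 20, 0.997 and 0.160 in CD organoids and 0.980 and 1.81 in adult mCD. It fell by 3.16 on the log2 scale from day 5 to day 10 (SE 0.524, edgeR adjusted p = 0.000415). Cox4i1, the general form, stayed between 188 and 231 CPM in all UB organoids and was at 560 and 610 in adult mCD. Day-5 UB organoids were thus the group with most of both Cox4i2 and Cox6b2.

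Cox7a1 and Cox6a2, the forms of heart and skeletal muscle, were highest in adult mCD. Cox7a1 was at 0.303 to 0.512 CPM in all 6 UB organoid libraries, at 1.28 and 1.92 in CD organoids and at 18.8 and 18.4 in adult mCD. It rose by 1.92 in CD organoids against day 10 (SE 0.319, edgeR adjusted p = 0.000183) and by 3.50 in adult mCD (SE 0.244, edgeR adjusted p = 4.08e-08). As a share of Cox7a2, the liver-type form, its RPKM was 0.927% and 0.963% at day 5, 2.33% and 3.69% in CD organoids and 15.7% and 13.3% in adult mCD. Cox6a2 had 3 counts in each day-5 library (0.128 and 0.122 CPM) and none at day 10, at day 20 or in CD organoids, and it was at 1.81 and 1.73 CPM in adult mCD, at least 7.79-fold higher than CD organoids with these set at the floor of 3 counts per library. Its partner Cox6a1 rose by 0.31 at day 20 (edgeR adjusted p = 0.00846), by 0.89 in CD organoids against day 10 and by 1.08 in adult mCD.

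**Figure D3:**
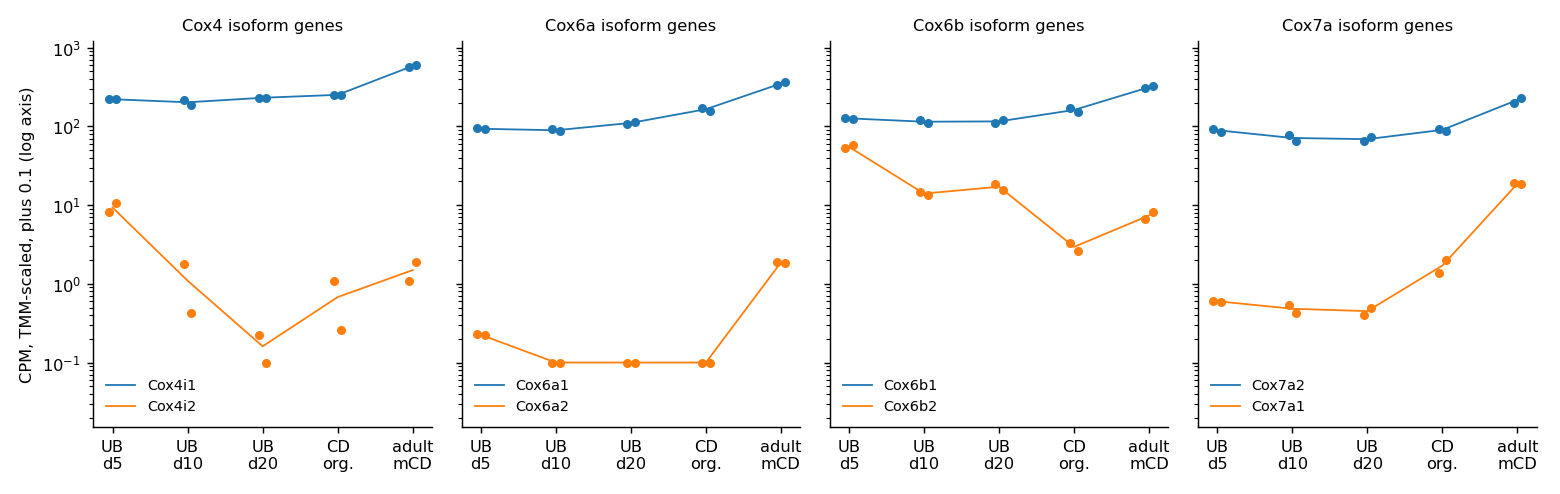
Levels of isoform genes of complex IV subunits in each library as TMM-scaled CPM plus 0.1 on a log axis, with the general form and the restricted form of a subunit in each panel and lines through the group means. Cox6b2 and Cox4i2 were highest at day 5 (52.4 and 57.2 CPM, 7.98 and 10.4 CPM), and Cox7a1 was highest in adult mCD (18.8 and 18.4 CPM).

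Of the other complex IV genes, Ndufa4, a subunit once assigned to complex I, was nearly level at 108 to 135 CPM in all organoids and at 305 and 362 in adult mCD, a rise of 1.51 (SE 0.0834, edgeR adjusted p = 4.05e-09). Cox7c was at 49.7 and 44.8 CPM at day 10 and 61.2 and 66.5 at day 20, a rise of 0.43 (edgeR adjusted p = 0.00217), and reads can be shared with its copy Gm10012. Cox8a fell by 0.42 from day 5 to day 10 and rose by 0.67 in CD organoids and by 0.91 in adult mCD. Cox7a2l, which takes part in joining complexes III and IV, fell by 0.44 from day 5 to day 10 and rose by 0.85 in adult mCD. With its copy Gm6969 added, which was at 18.2 and 19.4 CPM in CD organoids and 0.226 and 0.0786 in adult mCD, the adult level was 1.34 times that of CD organoids. Over the complex, 8 of 14 tested genes rose and 1 fell in CD organoids, beside 31.2% and 33.7% of genes of at least 10 CPM. In adult mCD, where 30.5% of such genes rose, 13 rose, with a median of 1.13. Cox4i2 was the one that did not pass there (1.14, SE 0.754, edgeR adjusted p = 0.235).

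In complex V, the ATP synthase, Atp5b, the catalytic beta subunit, had the highest RPKM of all nuclear members in adult mCD, with a mean of 405. It was at 1173 and 1093 CPM at day 5, 905 and 875 at day 10, 887 and 930 at day 20, 1359 and 1274 in CD organoids and 3022 and 3302 in adult mCD. The fall from day 5 to day 10 was 0.35, the rise in CD organoids 0.56 and the rise in adult mCD 1.26 (SE 0.0783, edgeR adjusted p = 1.24e-08). Atp5a1, the alpha subunit, moved alike, with -0.42, 0.29 and 1.20. Atp5e, the epsilon subunit of the stalk, was at 72.7 and 66.2 CPM at day 10, 61.9 and 56.6 in CD organoids and 136 and 164 in adult mCD. Its value in CD organoids against day 10 was -0.23 (edgeR adjusted p = 0.0611), and it rose by 1.34 in adult mCD (SE 0.0945, edgeR adjusted p = 4.7e-08). In all, 4 of 13 genes fell from day 5 to day 10, where 22.6% of all genes of at least 10 CPM fell. In CD organoids against day 10, 7 rose, and all 13 rose in adult mCD, beside 31.2% and 30.5% of such genes.

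The 3 genes Atp5g1, Atp5g2 and Atp5g3 encode the same mature c subunit of the rotor. Atp5g2 was at 41.2 and 36.9 CPM at day 5, 30.3 and 24.4 at day 10, 26.9 and 25.3 at day 20, 19.2 and 21.6 in CD organoids and 27.7 and 32.1 in adult mCD. It fell by 0.52 from day 5 to day 10 and rose by 0.55 in adult mCD, and its value in CD organoids against day 10 was -0.42 (edgeR adjusted p = 0.0144). Atp5g1 and Atp5g3 rose in CD organoids, by 0.68 and 0.64, and in adult mCD, by 1.12 and 0.86. Atp5g2 thus held its highest values at day 5, while the other c-subunit genes held theirs in adult mCD. Atp5g1 has a copy, Gm10039, of 99.8% identity, with 131 and 119 counts in CD organoids and 3 in each adult library.

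The assembly factors had a median of 0.49 in adult mCD against CD organoids, beside 0.90 to 1.13 for the nuclear subunits of the 5 complexes, a difference that was not tested. Of the 7 genes, Ndufaf4 rose from 22.5 and 22.3 CPM at day 5 to 28.2 and 31.4 at day 10 (0.41, edgeR adjusted p = 0.00619) and was the only nuclear member to rise in that comparison. No nuclear member was called higher there without day-5 replicate 1, without day-5 replicate 2, without day-10 replicate 2, or with only the 4 libraries compared in the edgeR fit, whereas DESeq2 on all libraries called 1 and 3 had an unadjusted edgeR p under 0.05. Ndufaf6 fell in it from 10.5 and 10.7 to 6.18 and 5.58 CPM (-0.85, edgeR adjusted p = 0.00162) and rose by 1.14 in adult mCD. Ndufaf8 rose in CD organoids by 0.66. In adult mCD 4 of 7 rose, where 30.5% of all genes of at least 10 CPM did. Ndufaf1, Ndufaf5 and Ndufaf7 gave 0.19, 0.32 and 0.32 there without passing. The summed level of the assembly factors was 1.38 times that of CD organoids, compared with 1.84 to 2.20 times for the nuclear subunits of complexes I to V.

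The 2 genomes were set against each other per length, as the sum of RPKM over the mitochondrial subunits divided by that over the nuclear subunits of complexes I, III, IV and V. This ratio was 3.72 and 3.33 at day 5, 4.68 and 6.27 at day 10, 11.6 and 12.3 at day 20, 8.85 and 9.18 in CD organoids and 18.3 and 16.7 in adult mCD. The libraries of the 5 groups did not overlap, and CD organoids stood below day 20. Between these 2 groups the mitochondrial sum was similar, at 23204 and 25711 RPKM at day 20 and 23757 and 23778 in CD organoids, while the nuclear sum was 2001 and 2096 at day 20 and 2683 and 2590 in CD organoids. On the log2 scale the means were 1.82 ± 0.11, 2.44 ± 0.30, 3.58 ± 0.06, 3.17 ± 0.04 and 4.12 ± 0.09 (SD, n = 2). The ratio rests on the 7 counted mitochondrial genes, with mt-Atp6 added in adult mCD replicate 1, and it is given as a description with no p. For some nuclear genes the deposited length exceeds the span of the gene, as for Ndufv1 with 13645 bases at chr19:4007384-4012806. This lowers their RPKM, so the ratio is read between groups and its level is no measure of the 2 genomes' relative abundance.

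By complex, the log2 ratio went from 2.49 at day 5 to 4.28 at day 20, 3.98 in CD organoids and 4.94 in adult mCD for complex I. For complex III it went from 1.95 to 4.30, 3.34 and 4.66. For complex IV, with mt-Co1 alone on the mitochondrial side, it was 1.99 at day 5, 2.07 at day 10, 3.17 at day 20, 3.02 in CD organoids and 3.81 in adult mCD. Complex III thus had the widest span within the organoids and complex IV the smallest step from day 5 to day 10.

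**Figure D4:**
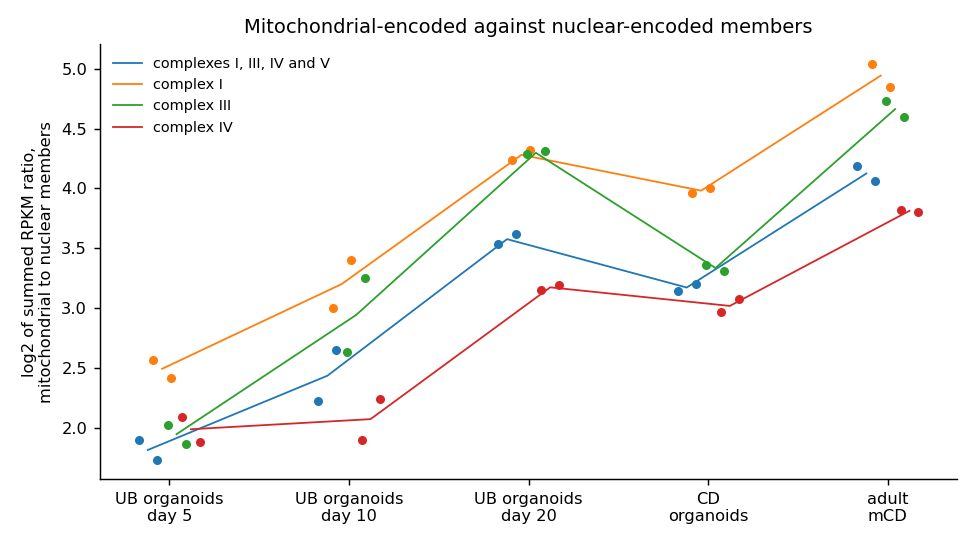
Log2 of the summed RPKM of mitochondrial-encoded over nuclear-encoded members in each library, for complexes I, III, IV and V together and for complexes I, III and IV apart, with lines through the group means. Together the means ran from 1.82 at day 5 to 3.58 at day 20, 3.17 in CD organoids and 4.12 in adult mCD.

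**Figure D5:**
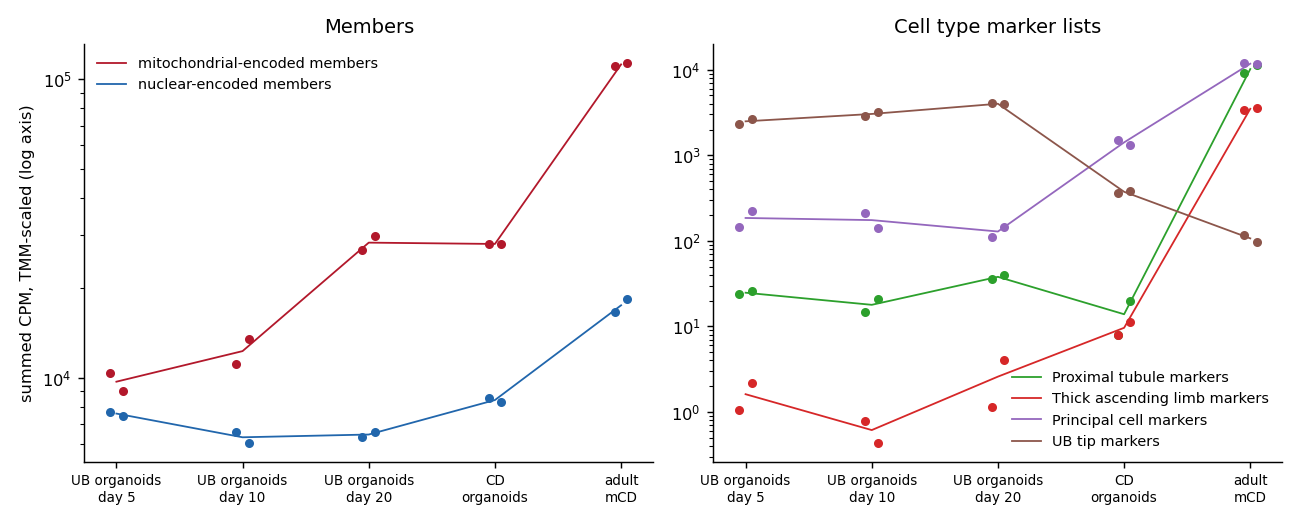
Summed CPM (TMM-scaled, log axis) of the mitochondrial-encoded and nuclear-encoded members (left) and of 4 cell type marker lists (right) in each library, with lines through the group means. Mitochondrial members were almost equal in day-20 UB organoids and CD organoids (means 28348 and 28059). Between these groups the sum of the UB tip markers was lower and that of the principal cell markers higher in CD organoids. Sox9, a tip marker, was at 256 and 259 CPM at day 20 and 234 and 256 in CD organoids. Proximal tubule and thick ascending limb markers were high in adult mCD alone.

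Promoters of nuclear respiratory genes are known for sites of NRF1, of ETS factors such as GABP and of YY1. In RefSeq promoter windows on GRCm38.p6, from 250 bases before to 50 after the start of a gene, 66 of the 80 nuclear members had an entry. Both strands were searched for GCGCATGC (NRF1, which overlaps its own reverse complement in GCGCATGCGC), CCGGAAG (ETS) and AAGATGGC (YY1). The NRF1 letters were found in 10 of the 66 windows (15.2%) against 2.71% of all 32851 windows, the ETS letters in 14 (21.2%) against 8.86%, and the YY1 letters in 10 (15.2%) against 2.75%. Any of them was found in 30 (45.5%) against 13.3%. Of the 10 windows with the YY1 letters, 7 belonged to complex I, which had 28 of the 66 windows. The stretches below come from 5 of the 30 windows, picked after the values were seen among members described above so that each motif is shown, with the matching letters in capitals. Other members described above, such as Cox6a1, Cox6b1, Cox8a, Atp5g2 and Ndufaf4, also hold a match.
Sdhb: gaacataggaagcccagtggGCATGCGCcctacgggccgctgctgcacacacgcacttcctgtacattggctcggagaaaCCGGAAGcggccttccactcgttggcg
Sdhd: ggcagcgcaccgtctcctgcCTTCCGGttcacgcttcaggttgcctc
Atp5e: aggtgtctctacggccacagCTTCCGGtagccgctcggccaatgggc
Ndufa6: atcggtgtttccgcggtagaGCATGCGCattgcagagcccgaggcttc
Ndufs7: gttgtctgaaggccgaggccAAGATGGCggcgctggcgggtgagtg
The stretches lie at chr4:140961197-140961303 on the plus strand for Sdhb, chr9:50603869-50603915 on the minus strand for Sdhd, chr2:174464177-174464223 on the minus strand for Atp5e, chr15:82354347-82354394 on the minus strand for Ndufa6 and chr10:80249453-80249498 on the plus strand for Ndufs7. Sdhb holds the NRF1 letters 54 bases before its start and the ETS letters just after it, while Sdhd holds the ETS letters. The windows of Cox6b2 and Cox7a1 held none of the 3 motifs. Members with any of these motifs had a median log2 fold change of 0.92 in adult mCD against CD organoids (28 of 30 higher) and tested members without had 1.01 (30 of 34 higher). In CD organoids against day 10 the medians were 0.30 and 0.36. A match to these letters is a description of the window and no evidence of binding.

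Genes that work with the chain were counted in the same test, from lists drawn up by pathway. Their counts are read against all genes of at least 10 CPM, of which 31.2% rose and 33.7% fell in CD organoids against day 10 and 30.5% rose and 31.5% fell in adult mCD. Of 13 TCA cycle genes, 10 rose in CD organoids against day 10 and all 13 in adult mCD, with medians of 0.54 and 1.14. The mobile electron carrier Cycs, cytochrome c, went from a mean of 15.8 CPM at day 10 to 50.1 in CD organoids (1.66, edgeR adjusted p = 2.65e-07) and 116 in adult mCD. Of 38 other chain and assembly genes tested, 11 rose and 1 fell in CD organoids and 11 rose and 2 fell in adult mCD, so that the rises were near the share of all these genes. Of 68 mitochondrial ribosomal protein genes, which serve the translation of the 13 mitochondrial mRNAs, 4 rose and 16 fell in CD organoids and 28 rose in adult mCD.

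Of 17 genes that transcribe and maintain mitochondrial DNA, 1 rose and 3 fell in CD organoids, and 3 rose and 2 fell in adult mCD, where 21.6% of all genes tested were higher. Tfam, the packaging and transcription factor of mitochondrial DNA, had mean levels of 67.0, 62.8, 61.5, 45.2 and 47.8 CPM from day 5 to adult mCD and fell by 0.48 in CD organoids against day 10 (edgeR adjusted p = 0.000304). Polrmt, the mitochondrial RNA polymerase, passed in none of the 4 main steps by edgeR, with log2 fold changes of -0.26 to 0.22. From day 10 to day 20, where all 7 mitochondrial genes rose, 1 of the 17 rose, Tfb2m, a transcription factor of mitochondrial promoters (0.85, edgeR adjusted p = 0.00171). Of all genes of at least 10 CPM, 15.8% rose there. Of 15 genes of mitochondrial RNA processing and stability, 3 rose and 8 fell in CD organoids and 6 rose and 1 fell in adult mCD.

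Among 12 regulators of mitochondrial biogenesis, 2 rose and 7 fell from day 5 to day 10, beside 17.3% and 22.6% of genes of at least 10 CPM. In CD organoids against day 10, 5 rose and 4 fell, and 9 rose in adult mCD. Esrrg, an orphan nuclear receptor, rose in all of these steps, with means of 7.61, 15.1, 24.9, 110 and 159 CPM from day 5 to adult mCD and a rise of 2.87 on the log2 scale against day 10 in CD organoids (edgeR adjusted p = 1.86e-09). Esrra, its relative, rose there by 2.01. Ppargc1a, the coactivator PGC-1alpha, fell by 0.84 from day 5 to day 10, rose by 0.74 in CD organoids against day 10 and by 1.63 in adult mCD (edgeR adjusted p = 1.17e-09). Nrf1 fell by 1.07 in CD organoids against day 10 and Gabpb1, a GABP subunit, by 1.24. Whether any of these regulators has a part in the changes of the members was not tested.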

How the data were processed

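RNA-seq of 10 libraries, 2 in each of 5 groups, had been performed. The authors trimmed the reads, aligned them with STAR to GRCm38 (mm10) and assigned them to GENCODE M24 genes with the E/M model of Partek Flow. The submitters' processing notes also name Trimmomatic 0.36, cutadapt 2.5, FastQC 0.11.8 and edgeR 3.28.1, and the labels and the methods name different RNA and library kits. The deposited table holds whole-number counts per gene, RPKM that the authors computed from them, a gene length, and 10 columns of scaled counts that were not used here.

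Here the deposited counts were tested with edgeR 4.0.16 in R 4.3.3 (glmQLFit, glmQLFTest, TMM factors, all 10 libraries in one fit of group means, genes of at least 10 counts in sum, Benjamini-Hochberg over 24410 genes, calls at an adjusted p of at most 0.01). TMM-scaled CPM compare libraries, and deposited RPKM compare genes by the deposited gene lengths. For some nuclear genes these lengths exceed the span of the gene in GENCODE M21, which limits RPKM comparisons between genes. Library totals of 11913613 to 24536676 counts set the precision, and floors (3 counts) cover counting error only. The code was tested on simulated data. Copies were found with BLAST 2.17.0 among GENCODE M21 transcripts. Members and lists were chosen with earlier results of these data known. Named are all mitochondrial members, in each comparison the 5 largest called rises and falls of at least 1 CPM, isoform genes, Sdh genes, assembly factors and members under the filter (the ATP synthase inhibitor carries a symbol outside the rule). Genes named beyond these were chosen after their values were seen. Alternatives were DESeq2 1.42.0, other scalings, filters and prior counts, pairwise fits, a replicate block, each library left out and a wider membership. Symbols matching the rule with another deposited gene type (15 of them protein-coding in M21) were left out.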

Additional observations from a re-analysis of the deposited data

How the results depend on the processing

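Values are members called higher or lower. With only the 4 libraries compared in the fit, day 10 against day 5 gave 0 mitochondrial members higher and 0 nuclear higher with 1 lower, and day 20 against day 10 gave 1 and 0 nuclear. Of all genes tested in these fits, 5.02% were higher and 5.43% lower in the first and 6.54% and 4.55% in the second. Requiring also a 4-fold change left mitochondrial counts of 0, 0, 0 and 2 in the 4 main comparisons, and nuclear counts of 0 higher and 1 lower, 0 and 0, 0 higher, and 2 higher. Library totals gave nuclear 2 and 7 from day 5 to day 10, 2 higher at day 20, 2 lower in CD organoids and 54 higher in adult mCD. The matching shares of all genes tested were 15.1% and 7.94%, 8.01% higher, 22.4% lower and 15.5% higher. In CD organoids against day 10 library totals also lost 9 of the 37 nuclear calls and gave a median of 0.23 in place of 0.32. Without the mitochondrial genes in the totals, 1 nuclear member was lower at day 20; DESeq2 called 7 higher there, and without the count filter 2 were lower in CD organoids. CD organoids against day 20 gave 0 mitochondrial members higher and 1 lower. Chosen after seeing the data, the 15 further members gave 2 nuclear higher from day 5 to day 10 and 2 lower in CD organoids, and leaving out members with near-identical copies 2 higher at day 20 and 1 lower in adult mCD. The mitochondrial share of protein-coding counts was 1.16%, 1.61%, 3.59%, 3.43% and 10.2% from day 5 to adult mCD. The log2 ratio from mean log2(RPKM + 1) rose by 0.59 at day 20, 0.28 in CD organoids and 0.55 in adult mCD. The cause of these shifts was not tested.

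Leaving out 1 library at a time gave, from day 5 to day 10, 3 to 6 mitochondrial members higher and 0 lower, and 0 to 1 nuclear higher and 5 to 27 lower. At day 20 it gave 7 mitochondrial higher, 0 to 5 nuclear higher and 0 to 4 lower. In CD organoids it gave 7, 26 to 43 and 1 to 2, and in adult mCD 7 to 8, 58 to 67 and 1 to 2. With the replicate number as a block the counts were 6 and 0 mitochondrial and 1 and 16 nuclear, 7 and 0 with 4 and 2, 7 and 0 with 35 and 1, and 8 and 0 with 69 and 2. Nothing in the labels pairs the numbers. Deviations of same-numbered libraries correlated at -0.07 to 0.09 over 12765 genes in the 4 main comparisons and at 0.15 in CD organoids against day 20. Of all called members, Ndufab1 alone changed sign, in adult mCD under library totals. Depth limits low genes such as Cox4i2, Cox6a2 and Ndufs5.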

Other observations

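A further 15 symbols of the same families carry another gene type in the deposited data but are protein-coding in GENCODE M21, among them Cox5a, Cox6c and Atp5d. In adult mCD against CD organoids 13 of the 15 were higher and 1 lower, in CD organoids against day 10 the counts were 10 and 1, and from day 5 to day 10 they were 1 and 5 (edgeR, adjusted p of at most 0.01). Of genes of at least 10 CPM, 30.5%, 31.2% and 17.3% were higher in these comparisons and 31.5%, 33.7% and 22.6% lower. Ndufa4l2, a relative of Ndufa4 known as a target of hypoxia signalling, fell by 3.72 on the log2 scale from day 5 to day 10 and rose by 3.58 in CD organoids against day 10. The assembly factor Ndufaf2 fell by 0.89 in CD organoids and rose by 1.40 in adult mCD.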
